A study of Mus musculus with 12 samples.

Results

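Yap1 (Yap), its paralogue Wwtr1 (Taz), the DNA-binding partners Tead1, Tead2 and Tead4, and the target genes Ctgf, Cyr61, Amotl2 and Ankrd1 were followed as 9 genes of the 18412 listed in each deposited table. They were taken by symbol, and were chosen by the difference of their exonic and intronic reads between knockout and wild-type embryonic stem cells (ESCs) that these same tables hold. Their values are therefore given as a description. Where members that a fit across all genes calls are counted, the share of all genes stands beside the count and nothing is read from it. Polyadenylated, strand-specific RNA of mouse ESCs was sequenced in 12 libraries, 3 in each of 4 groups. Dicer1-/- cells were set against the wild-type line TFC, and Dgcr8-/- cells against the wild-type line V6.5. Dicer1 encodes the nuclease that cuts microRNA precursors in the cytoplasm, and Dgcr8 the partner of Drosha in the nuclear step before it. All 4 lines were grown without feeder cells on gelatin, in medium with serum and leukaemia inhibitory factor. The labels name 1 line for each genotype and do not say how many clones it holds or whether libraries came from separate cultures, so a factor's loss and any other way in which 2 lines differ cannot be told apart. The spread between libraries may be technical.

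Yap and Taz are coactivators that do not bind DNA themselves. The Hippo kinases Stk3, Stk4, Lats1 and Lats2 phosphorylate them and hold them in the cytoplasm, and when this is relieved they enter the nucleus and act on genes through Tead proteins. Spreading cells, tension on actin and factors of serum favour nuclear Yap. Ctgf and Cyr61, which encode secreted matricellular proteins of the CCN family, are the most used readouts of this activity, and Lats2, Amotl2 and Ptpn14 are targets that in turn restrain Yap. In early embryos and ESCs, Yap and Tead4 are known for their part in the choice between inner cell mass and trophectoderm.

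On mm10 (Gencode M21), the target genes are Ctgf (Ccn2) at chr10:24595442-24598683 on the plus strand, Cyr61 (Ccn1) at chr3:145646976-145649981 on the minus strand, Amotl2 at chr9:102716672-102733418 (plus) and Ankrd1 at chr19:36111961-36120099 (minus). The coactivators are Yap1 at chr9:7931999-8004596 (minus) and Wwtr1 at chr3:57455649-57575910 (minus). The Tead genes are Tead1 at chr7:112679318-112906807 (plus), Tead2 at chr7:45215753-45233644 (plus) and Tead4 at chr6:128224288-128300823 (minus). Exonic and intronic reads are those the authors assigned to each whole gene.

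RefSeq promoter entries (build GRCm38.p6, 250 bases before to 50 after the start) were matched for 6 of the 9 genes, Cyr61, Yap1, Wwtr1, Tead2, Amotl2 and Ankrd1. They were searched for GGAATG, the core letters of the Tead motif, in either orientation (CATTCC). The promoters of the 3 target genes with an entry are printed because Cyr61 and Amotl2 moved alike while Ankrd1 was hardly read. Capitals mark the matches. Cyr61 lies at chr3:145649936-145650235 (minus strand), Amotl2 at chr9:102717554-102717853 (plus strand) and Ankrd1 at chr19:36119795-36120094 (minus strand).
Cyr61: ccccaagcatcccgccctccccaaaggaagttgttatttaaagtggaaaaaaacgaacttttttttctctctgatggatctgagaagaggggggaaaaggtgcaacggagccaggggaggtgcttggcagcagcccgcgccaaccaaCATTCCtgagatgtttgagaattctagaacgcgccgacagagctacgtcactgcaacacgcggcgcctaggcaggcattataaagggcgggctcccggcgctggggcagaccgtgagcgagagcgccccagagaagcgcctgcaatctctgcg
Amotl2: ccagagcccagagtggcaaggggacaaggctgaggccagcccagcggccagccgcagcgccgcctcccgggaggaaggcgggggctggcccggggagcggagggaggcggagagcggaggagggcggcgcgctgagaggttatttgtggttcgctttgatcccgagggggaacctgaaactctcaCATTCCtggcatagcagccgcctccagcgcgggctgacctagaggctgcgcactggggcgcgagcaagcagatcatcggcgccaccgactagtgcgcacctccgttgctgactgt
Ankrd1: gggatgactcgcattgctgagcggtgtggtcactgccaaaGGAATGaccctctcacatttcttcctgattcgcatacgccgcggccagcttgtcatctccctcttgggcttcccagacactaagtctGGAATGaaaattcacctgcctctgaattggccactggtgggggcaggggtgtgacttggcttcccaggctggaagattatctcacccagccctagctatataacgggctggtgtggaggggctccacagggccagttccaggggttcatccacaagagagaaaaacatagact
The Cyr61 match began 103 bases before the start, the Amotl2 match 65, and the Ankrd1 matches 210 and 123. Yap1 held 1 match, 141 bases before its start, Wwtr1 held 1 in each of 2 overlapping entries, and Tead2 held 0. The same letters occur in 14.7% of all 32851 promoters of this length and in 15.3% of the 14633 genes of the tables with an entry. A match describes the letters of this window and is not a measured binding site.

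Dicer and Dgcr8 are both needed to make most microRNAs, so the longest annotated 3' UTR of each gene (Gencode M21) was searched for 7 bases that pair with positions 2 to 8 of microRNAs that are abundant in ESCs. Capitals mark this seed in the mature RefSeq sequences, first of miR-294 and miR-302b, which share it, and then of the miR-17-92 cluster.
miR-294-3p: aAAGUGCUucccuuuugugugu
miR-302b-3p: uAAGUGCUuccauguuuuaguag
miR-18a-5p: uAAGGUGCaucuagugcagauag
miR-19b-3p: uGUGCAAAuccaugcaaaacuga
The Ctgf 3' UTR held the letters GCACCTT for miR-18a-5p at its base 1561 and, overlapping them, TTTGCAC for miR-19b-3p at base 1558 of 1608. The same stretch is shown with each match in capitals.
Ctgf, miR-18a-5p match: gttacatgtttGCACCTTtctagttgaaa
Ctgf, miR-19b-3p match: aaagttacatgTTTGCACctttctagttg
Of 17871 genes with a 3' UTR, 8.9% held the first match and 11.9% the second. Ctgf held a further match for miR-16-5p (TGCTGCT, in 23.3% of genes), and 0 for miR-294-3p and miR-302b-3p (AGCACTT, in 15.8%). Cyr61, Yap1, Tead2 and Ankrd1 held 0 matches for the 7 microRNAs searched. Wwtr1 held matches for the miR-290 and miR-302 seed, for miR-17-5p (GCACTTT, in 12.7%) and for miR-18a-5p. Tead1 held matches for miR-17-5p, miR-19b-3p, miR-92a-3p (GTGCAAT, in 7.0%) and miR-16-5p, and Tead4 and Amotl2 for miR-16-5p. Ctgf, with matches, and Cyr61, without, are set side by side below.

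Values are reads scaled by a size factor per library, called normalised reads here. The deposited columns are group means, from which the whole reads of the 3 libraries of a group were solved. Libraries carry the letters A, B and C, where A is the library least like the other 2 of its group in exons. The letters are therefore set from the data, and B and C pair nothing across groups. The 4 libraries A stood apart in a shared way: exonic Junb was 613.3 to 1254 in them and 0 to 39.84 in all B and C, and exonic Utf1 was 5460 to 7511 against 82.88 to 460.2. Both genes were picked after their values were seen, and what sets these libraries apart was not tested. Exonic reads ran from 5814673 to 30491004 per library, fewest in V6.5 library A, and intronic reads from 559057 to 5597604. Exonic reads of Dicer1, counted over the whole gene, were 1334 to 1763 in the Dicer knockout and 2944 to 3496 in TFC. Those of Dgcr8 were 342 to 1114 where it was deleted and 1930 to 2947 in V6.5. Since the tables were scaled separately, levels are compared only within a pair. Tests were made with limma across all genes with a mean of at least 10 in a table, and called means a p-value under 0.05 after Benjamini-Hochberg adjustment. In bulk RNA, fewer cells that express a gene and less RNA per cell cannot be told apart.

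Ctgf was higher in Dicer knockout cells than in TFC, and lower in Dgcr8 knockout cells than in V6.5. In Dicer knockout libraries A, B and C its exonic reads were 3250, 3134 and 2997, and in TFC 863.9, 805.4 and 1218. The lowest knockout library thus lay above the highest TFC library, with a ratio of means of 3.25 and a log2 fold change of 1.72 (SE 0.25). Its reads were 1246, 1433 and 1279 in the Dgcr8 knockout, against 2194, 3568 and 3242 in V6.5. All 3 knockout libraries lay below V6.5, at a ratio of 0.44 and a log2 fold change of -1.16 (SE 0.28).

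Cyr61 did the same with a wider range. It read 2161, 2266 and 2142 in Dicer knockout libraries and 477.2, 557.8 and 638.6 in TFC, a log2 fold change of 1.98 (SE 0.25). In Dgcr8 knockout libraries it read 1481, 859.2 and 689.9, and in V6.5 2229, 6248 and 4560, a log2 fold change of -2.06 (SE 0.45). The groups did not overlap in either pair, but V6.5 library A lay far below libraries B and C. The ratio of means was 3.93 in the Dicer pair and 0.232 in the Dgcr8 pair. Set against each other, the Dicer and Dgcr8 effects differed by 2.88 on the log2 scale for Ctgf (SE 0.35) and by 4.04 for Cyr61 (SE 0.52). Across the 12291 genes tested in both exon tables, the Dicer effect was called higher for 20 genes (0.163%) and lower for 1 (0.00814%), and Ctgf and Cyr61 are among the 20. Of all these genes, 69 (0.561%) were higher in the Dicer knockout and lower in the Dgcr8 knockout with no overlap in either pair, and Ctgf and Cyr61 are the 2 members among them. Nothing is read from these counts, since the members were selected on these contrasts.

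**Figure D1:**
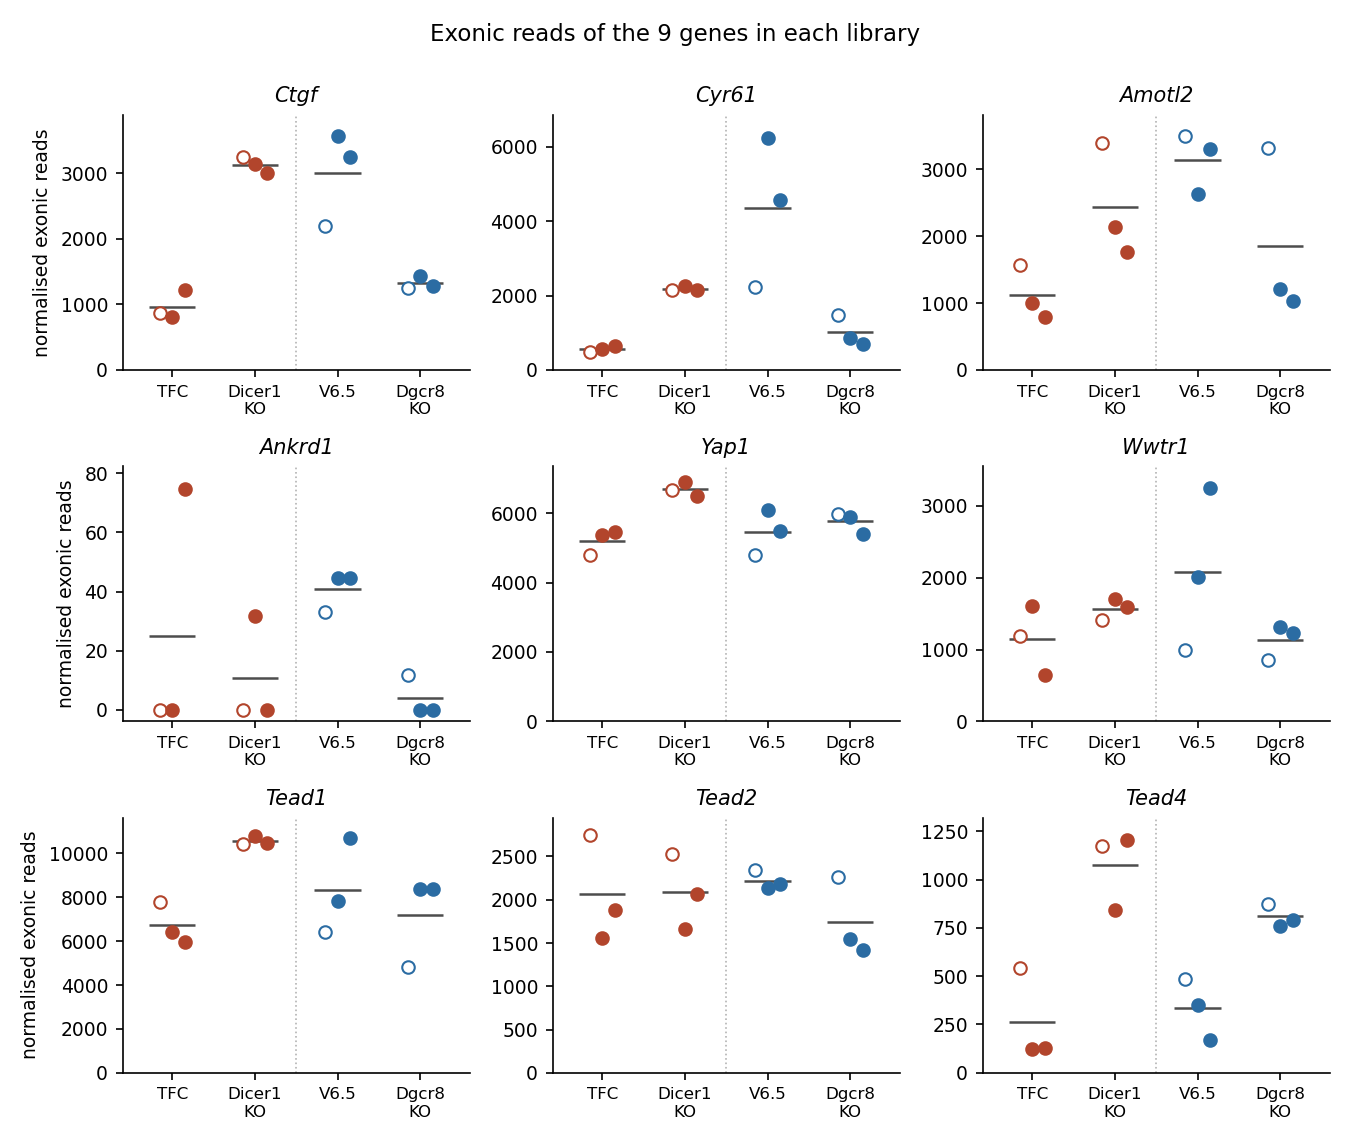
Normalised exonic reads (vertical axis, linear) of each of the 9 genes in the 12 libraries, by group (horizontal axis); open points are library A, filled points B and C, bars the group means, and the dotted line separates tables scaled on their own. Ctgf and Cyr61 are high in the Dicer knockout and in V6.5, while Tead4 is high in both knockouts.

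Amotl2, an angiomotin relative that binds Yap and holds it at cell junctions, followed the same directions with more spread. Its exonic reads were 3395, 2143 and 1766 in the Dicer knockout and 1564, 1000 and 792.5 in TFC, without overlap (log2 fold change 1.12, SE 0.35). The Dgcr8 knockout gave 3315, 1216 and 1038, against 3501, 2631 and 3311 in V6.5 (log2 fold change -0.95, SE 0.45). There the groups overlapped, because knockout library A lay at the level of V6.5. Ankrd1, a muscle ankyrin repeat protein, was close to absent. It had 28 reads before scaling in the Dicer knockout, all in library B, and 52 in TFC, all in library C. It had 28, 0 and 0 such reads in the Dgcr8 knockout against 13, 49 and 28 in V6.5. The normalised values were 11.68, 0 and 0 against 33.01, 44.45 and 44.63, so the knockout lay lower without overlap at a level of few reads.

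Yap1 itself differed little. Its exonic reads were 6654, 6896 and 6504 in the Dicer knockout and 4789, 5375 and 5450 in TFC, which is a ratio of 1.28 without overlap (log2 fold change 0.36, SE 0.21). For Dgcr8 they were 5982, 5898 and 5406 against 4807, 6096 and 5480, and the groups overlapped (log2 fold change 0.08, SE 0.24). Wwtr1 read 1418, 1704 and 1588 in the Dicer knockout and 1194, 1608 and 650.1 in TFC (log2 fold change 0.54, SE 0.35). Its values were 847.4, 1308 and 1233 in the Dgcr8 knockout, against 992.8, 2012 and 3253 in V6.5 (log2 fold change -0.75, SE 0.45). The groups overlapped in both pairs, and the libraries of both wild types were widely spread, lowest in C of TFC and in A of V6.5.

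Tead4, the Tead of the trophectoderm, was higher in both knockouts. In the Dicer pair it read 1174, 845.1 and 1204 in the knockout and 540.8, 125.1 and 129.4 in TFC, a ratio of 4.05 (log2 fold change 2.36, SE 0.59). In the Dgcr8 pair it read 874.9, 762.1 and 791.5 in the knockout and 485, 348.4 and 169 in V6.5, a ratio of 2.42 (log2 fold change 1.40, SE 0.43). Neither pair overlapped, and in both wild types library A was the highest. Tead1, the most widely expressed Tead, read 10410, 10780 and 10460 in the Dicer knockout and 7783, 6411 and 5970 in TFC (log2 fold change 0.66, SE 0.23), again without overlap. Its Dgcr8 knockout values were 4804, 8383 and 8355 against 6419, 7836 and 10700 in V6.5, with overlap (log2 fold change -0.23, SE 0.34). The annotation places Gm44462 on the same strand, overlapping Tead1, so a part of the Tead1 reads could belong to that gene. Tead2, the family member known as strong in early embryos, overlapped in both pairs. It read 2531, 1660 and 2062 against 2743, 1563 and 1887 in TFC, and 2263, 1544 and 1420 against 2344, 2132 and 2184 in V6.5, with log2 fold changes of 0.03 (SE 0.29) and -0.38 (SE 0.27).

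In exons all 9 members passed the filter on low values. Of these, 6 were higher in the Dicer knockout without overlap (Ctgf, Cyr61, Yap1, Tead1, Tead4, Amotl2) and 0 were lower, where 11.7% and 9.63% of the 13149 genes tested were. Called higher were 2 members, Ctgf and Cyr61, and called lower 0, where 1.03% and 0.228% of all genes were. Without the variance trend neither Ctgf nor Cyr61 was called, with 19 genes called higher, while limma-voom called 2 genes of the CCN family higher. In Dgcr8 exons 1 member was higher without overlap (Tead4) and 3 were lower (Ctgf, Cyr61, Ankrd1), where 10.6% and 11.9% of 12692 genes were. Called there were 0 members in either direction, beside 0.78% of genes called higher and 0.552% lower. Without Dicer knockout library B or C, or without TFC library C, limma called 0 genes in Dicer exons, and without TFC library B it called 7, with neither Ctgf nor Cyr61 among them. With a term for library A in the fit, more genes and more members were called. In Dicer exons 5 members were called higher (Ctgf, Cyr61, Tead1, Tead4, Amotl2), beside 7.26% of all genes. In Dgcr8 exons Tead4 was called higher, beside 8.36%, and 4 members lower (Ctgf, Cyr61, Amotl2, Ankrd1), beside 8.65%. The difference between the Dicer and Dgcr8 effects was then called for 3 members (Ctgf, Cyr61, Amotl2), beside 1.82% of genes called in that direction. Over the refits that left out 1 library of the Dicer pair, the log2 fold changes stayed at 1.61 to 1.90 for Ctgf and at 1.87 to 2.08 for Cyr61.

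Per 1000 exonic bases, Yap1 was the most abundant member in TFC, at 1248 ± 86.8 normalised reads per kb (SD, n = 3). Tead2 followed at 957 ± 283 and Tead1 at 675 ± 94.9, and neighbours in this order overlapped down to Tead1. Ctgf came next at 401 ± 92.9, below the range of Tead1. Cyr61 at 275 ± 39.8, Amotl2 at 267 ± 95.3, Wwtr1 at 241 ± 100 and Tead4 at 86.2 ± 77.6 formed a run in which each neighbour overlapped the next. In the Dicer knockout Ctgf at 1302 ± 52.7 and Cyr61 at 1080 ± 32.9 stood directly behind Yap1 at 1603 ± 47.4, without overlap between these 3, and Cyr61 overlapped Tead1 at 1059 ± 20.2. The V6.5 libraries gave another order. Cyr61 had the highest mean, 2143 ± 995, with Yap1 at 1310 ± 155 and Ctgf at 1250 ± 299 behind it, all within overlapping ranges. In the Dgcr8 knockout Yap1 led at 1382 ± 74.6 without overlap, and Ctgf and Cyr61 stood at 549 ± 41.6 and 498 ± 205. Ankrd1 was lowest in all 4 groups.

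Intronic reads, which come largely from unspliced RNA, had the same direction as exonic reads for the 3 measurable target genes, at low depth. Ctgf has only 759 intronic bases in the tables. Its intronic values were 22.02, 111 and 77.62 in the Dicer knockout and 5.588, 35.59 and 16.77 in TFC, overlapping, from 186 reads in the knockout and 55 in TFC. The Dgcr8 pair had 5 intronic reads in the knockout and 23 in V6.5, too few to be tested. Cyr61 introns (907 bases) gave 18.88, 24.27 and 40.92 in the Dicer knockout and 5.08, 0 and 5.59 in TFC, without overlap, from 80 and 14 reads. In the Dgcr8 pair they gave 27.32, 0 and 0 against 29.61, 73.49 and 71.1 in V6.5. Knockout library A there lay just under the lowest V6.5 library. Amotl2 introns gave 177.6, 117 and 127.9 in the Dgcr8 knockout against 228, 396.9 and 243.2 in V6.5, without overlap (log2 fold change -1.01, SE 0.36). In the Dicer pair its introns overlapped (log2 fold change 1.07, SE 0.60).

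Introns of the Yap and Tead genes are long and better read. Tead4 introns gave 260.5, 249.7 and 191.9 in the Dicer knockout and 131.6, 124.6 and 11.18 in TFC. In the Dgcr8 pair they gave 196.3, 105.5 and 210.7 against 47.38, 66.53 and 17.46 in V6.5. Tead4 was thus higher in both knockouts in introns also, at log2 fold changes of 1.99 (SE 0.82) and 2.07 (SE 0.57) beside 2.36 and 1.40 in exons. Tead1 introns read 1900, 1362 and 1109 in the Dicer knockout and 978.9, 266.9 and 777 in TFC (log2 fold change 1.27, SE 0.39). Yap1 introns read 568.2, 516.6 and 667.5 against 478.5, 453.7 and 381.5 in TFC, a ratio of 1.33 beside 1.28 in exons. Wwtr1 introns gave 29.03, 36.7 and 0 in the Dgcr8 knockout against 71.08, 136.2 and 84.82 in V6.5, without overlap, from 98 and 268 reads.

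In Dicer introns 8 of the 9 members passed the filter and 4 were higher without overlap (Cyr61, Yap1, Tead1, Tead4), against 9.27% of 11625 genes, and 0 were lower, against 7.99%. In Dgcr8 introns 7 passed, of which 1 was higher without overlap (Tead4) and 3 lower (Cyr61, Wwtr1, Amotl2), against 9.61% and 10.1% of 10748 genes. Without a term for library A no member was called in introns, where 0.275% of genes were called higher and 0.0774% lower in the Dicer pair, and 1.11% and 0.409% in the Dgcr8 pair. With that term Tead4 was called higher in Dgcr8 introns, beside 2.61% of genes, and 0 members in Dicer introns, beside 0.551%. The exonic change minus the intronic change was -0.13 (SE 1.07) for Ctgf, -1.03 (SE 1.11) for Cyr61 and 0.37 (SE 0.96) for Tead4 in the Dicer pair. In the Dgcr8 pair it was 2.07 (SE 1.22) for Cyr61, -0.71 (SE 0.46) for Tead4 and 0.02 (SE 0.51) for Amotl2. For Wwtr1 it was 2.40 (SE 1.48) in the Dgcr8 pair. By limma 0 of 10964 genes in the Dicer pair and 0 of 10304 in the Dgcr8 pair were called in this comparison (0% in each), with 389 and 588 at an unadjusted p under 0.05.

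**Figure D2:**
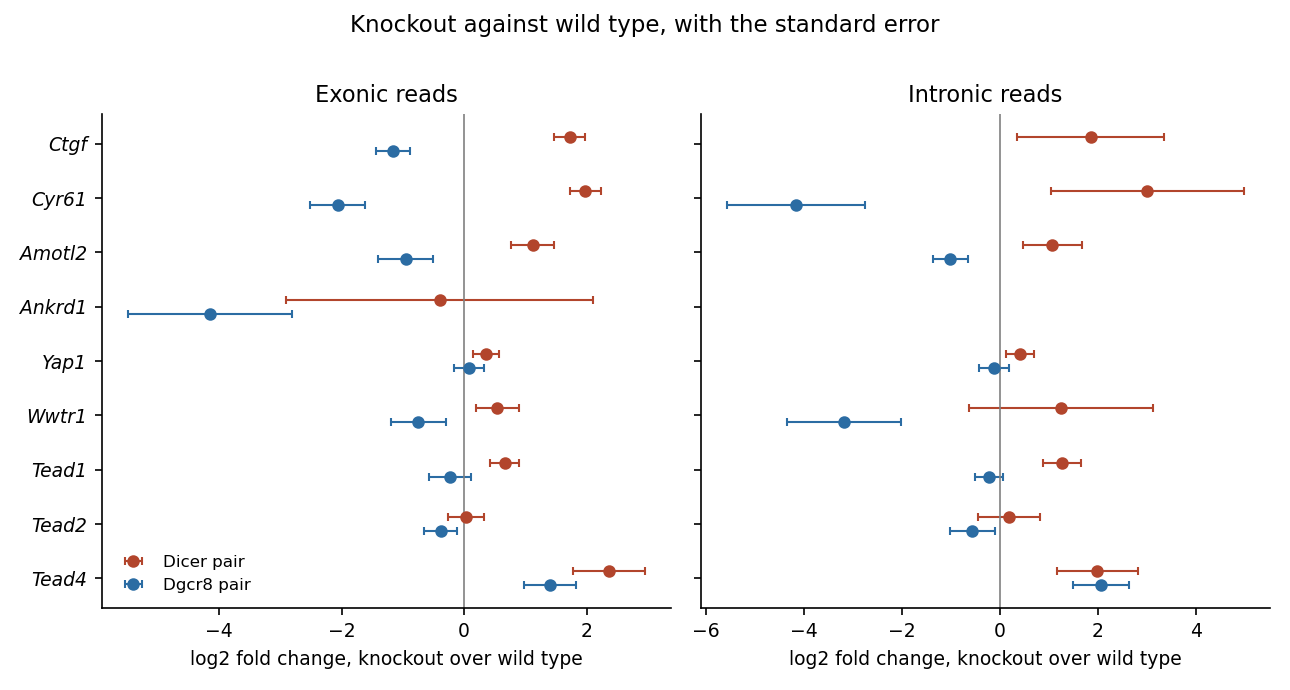
Log2 fold changes (horizontal axis, knockout over wild type) of the members in exons and introns, with the standard error of the limma fit as bars; genes under the minimum mean have no point. Ctgf, Cyr61 and Amotl2 lie to the right of 0 in the Dicer pair and to the left in the Dgcr8 pair, and Tead4 lies to the right in both.

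Other genes of a published Yap and Taz target signature were read for comparison. The list has 22 genes, 4 of them members. Of the other 18, 16 were tested in Dicer exons, and all 16 fold changes lay above 0, where 49.4% of all genes did. Their median log2 fold change was 1.16 where all genes had -0.01. The rise was called for 4 of them, beside 1.03% of all genes, and 5 reached an unadjusted p under 0.05. In Dgcr8 exons 18 were tested, of which 12 had fold changes below 0, with a median of -0.41. Of all genes there 45.7% lay above 0, with a median of -0.08. By the test 2 of the 18 rose and 1 fell, beside 0.78% and 0.552% of all genes, and 6 reached an unadjusted p under 0.05.

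Lats2, the kinase that phosphorylates Yap and is itself a target, rose in both knockouts. It read 2299, 1990 and 1766 in the Dicer knockout and 149.3, 260.1 and 178.3 in TFC, a log2 fold change of 3.39 (SE 0.34, limma adjusted p = 0.00767). In the Dgcr8 pair it read 1912, 1631 and 1700 against 299.6, 518 and 431.9, a log2 fold change of 2.10 (SE 0.31, limma adjusted p = 0.0304). All knockout libraries lay far above their wild type. Dock5, a guanine nucleotide exchange factor for Rac, also rose in both, by 2.14 (SE 0.23) in the Dicer pair and 2.07 (SE 0.25) in the Dgcr8 pair on the log2 scale. Its limma adjusted p-values were 0.00767 and 0.0246, and 3 of 3 libraries showed each rise. Dock5 introns rose as well in the Dgcr8 pair, with 309.9, 277.5 and 326.5 in the knockout against 106.6, 39.45 and 79.83 (limma adjusted p = 0.0211). Like Tead4, these genes were higher in both knockouts, unlike Ctgf and Cyr61.

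The other called targets passed the test in 1 pair each. Ptpn14, a phosphatase that binds Yap, rose in the Dicer knockout to 4588, 5198 and 4712 from 2042, 1574 and 1502 (log2 fold change 1.51, limma adjusted p = 0.0282). Gadd45a, a growth arrest gene, rose there to 1918, 2316 and 1999 from 816.9, 791.6 and 619.9 (log2 fold change 1.49, limma adjusted p = 0.0358). Tgfb2, the ligand of the Smad pathway in this list, fell in the Dgcr8 knockout to 52.57, 104.1 and 67.15 from 340.2, 1574 and 2002 (log2 fold change -3.82, SE 0.70, limma adjusted p = 0.05 after rounding). In the Dicer pair Tgfb2 was low in every library, from 0 to 111.5. By the test of the difference between the Dicer and Dgcr8 effects, 0 of 16 of these genes were called, with 8 at an unadjusted p under 0.05. Of the 16 differences 15 lay above 0, where 52.8% of all genes did. The signature was published for cancers, not for ESCs. Members and other targets called higher in Dicer exons together numbered 6 of 20, beside 1.03% of all 13149 genes tested. Among the 6 are Ctgf and Cyr61, which were chosen with this contrast known. The count of 6 was 0 without Dicer knockout library B, without C, or without TFC library C. It was 1 without TFC library B, and 5 and 7 without the Dicer knockout and TFC libraries A. Without the variance trend it was 1, and with limma-voom 5. In the Dgcr8 pair the exonic calls of Lats2, Dock5 and Tgfb2 and the intronic call of Dock5 were lost without library B or C of the knockout or of V6.5. The exonic calls of Lats2 and Tgfb2 there were also lost without the variance trend and with limma-voom. The intronic call of Dock5 was lost without the variance trend.

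**Figure D3:**
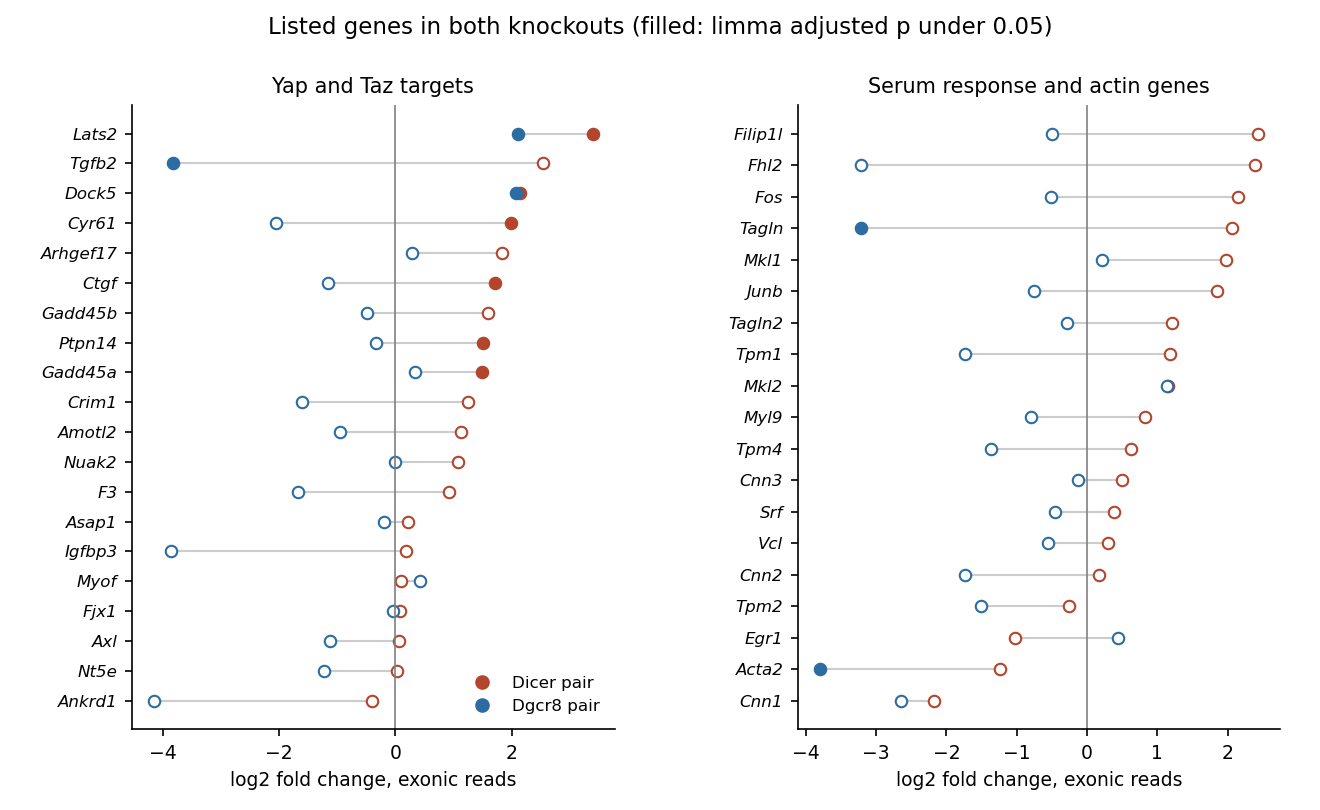
Log2 fold change of exonic reads (horizontal axis, knockout over wild type) for the targets and the serum response genes tested in both pairs; filled points passed limma at an adjusted p under 0.05. Lats2 and Dock5 lie high in both pairs, while Cyr61, Ctgf and Tagln lie on opposite sides of 0.

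Of the Hippo kinases and their upstream regulators, 26 of 28 listed genes are in the tables. In Dicer exons 25 were tested, 20 with fold changes above 0 and a median of 0.26. Of all genes 49.4% lay above 0, with a median of -0.01. Called higher were 4, beside 1.03% of all genes: Lats2, Ptpn14, Frmd6 and Amotl1, the first 2 of which are targets as well. Frmd6, a FERM domain protein that feeds into the kinases, rose to 1981, 1886 and 2163 from 579.9, 747.9 and 371.1 (log2 fold change 1.88, limma adjusted p = 0.0348). Amotl1, an angiomotin like Amotl2, rose to 2537, 2839 and 3540 from 1155, 1063 and 729.2 (log2 fold change 1.61, limma adjusted p = 0.0358). In Dgcr8 exons 26 were tested, 11 with fold changes above 0 and a median of -0.12, and Lats2 was the 1 gene called. Of all genes in Dgcr8 exons 45.7% lay above 0, with a median of -0.08, and 0.78% were called higher. There Amotl1 lay the other way, at 1645, 1530 and 1473 against 1788, 4647 and 4115 in V6.5, below the threshold of the test. Nf2 (Merlin), which activates the kinases at the membrane, rose in Dgcr8 introns to 2538, 1771 and 1680 from 838.1, 550 and 515.2 (log2 fold change 1.66, limma adjusted p = 0.0169). Its exons read 4953, 4495 and 4098 against 3349, 2217 and 1680 and were not called. The count of 4 in Dicer exons was 0 without knockout library B, without C, or without TFC library C, and 1 without TFC library B. Without the variance trend it was 1, and with limma-voom 3. The Nf2 call was lost without library B of the knockout, without B or C of V6.5, or without the variance trend.

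The other Tead and its antagonists were little read. Tead3, the remaining Tead, read 169.3, 102.2 and 75.69 in the Dicer knockout against 131.6, 2.501 and 28.77 in TFC, and 204.4, 30.3 and 22.38 in the Dgcr8 knockout against 271.7, 149.7 and 92.45 in V6.5. Vgll4, which competes with Yap for Tead, stayed between 1.814 and 173.2 in all 12 libraries. Neither was called. Of the other CCN genes, Wisp1 read 61.75, 34.18 and 75.15 in the Dgcr8 knockout against 215.8, 1009 and 1578 in V6.5 (log2 fold change -3.67, SE 0.77), short of the threshold. In the Dicer pair its libraries overlapped, at 20.45, 38.62 and 162 against 0, 75.04 and 31.64.

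Serum response factor and its cofactor Mkl1 share many contractile and matrix targets with Yap, Cyr61 and Ctgf among them, so 24 such genes were read beside the members. In Dicer exons 16 of the 20 tested had fold changes above 0, with a median of 0.72, where 49.4% of all genes lay above 0. Limma called 0, with 4 at an unadjusted p under 0.05 and 0 called by limma-voom. Fold changes ran from 2.44 for Filip1l and 2.39 for Fhl2 to -1.23 for Acta2 and -2.17 for Cnn1, all on the log2 scale. These ends rest on libraries with few or no reads. Filip1l read 161, 181.7 and 170 in the knockout against 32.1, 2.501 and 270.4 in TFC, overlapping. Fhl2 read 46.01, 68.15 and 34.53 against 25.68, 0 and 28.77. Acta2 and Cnn1 were low and overlapped, with knockout library B at 0 in both. In Dgcr8 exons 17 of 20 lay below 0, with a median of -0.78, where 45.7% of all genes lay above 0. Called lower were 2, beside 0.552% of all genes. Tagln, an actin-binding protein of smooth muscle, fell to 872.8, 311.5 and 260.6 from 2989, 5632 and 3454 (log2 fold change -3.22, SE 0.50, limma adjusted p = 0.0334). Acta2, smooth muscle actin, fell to 275.4, 156.9 and 118.3 from 1371, 4301 and 2372 (log2 fold change -3.80, SE 0.50, limma adjusted p = 0.0261). In Dgcr8 introns all 16 tested lay below 0, where 47.2% of all genes lay above 0. Acta2, Tpm1 and Fhl2 were called lower, beside 0.409% of all genes. Tpm1 (tropomyosin) introns read 1479, 756.9 and 824.4 in the knockout against 1857, 5919 and 5542. Both exonic calls were lost without library B or C of either Dgcr8 group. The 3 intronic calls were lost without knockout library B, or without V6.5 library B or C, and 1 was left without the variance trend or with limma-voom.

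Partners of Smad2 and Smad3 share enhancers with Yap and Tead, and the study's title names this network. In Dicer exons 9 of 11 had fold changes above 0, with a median of 0.53, and 0 were called, with 2 at an unadjusted p under 0.05 and 0 by limma-voom. In Dgcr8 exons 7 of 11 lay below 0, with a median of -0.27, and Tgfb2 fell, as given with the targets. Of all genes 49.4% lay above 0 in Dicer exons and 45.7% in Dgcr8 exons, and 0.552% were called lower in Dgcr8 exons.

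Markers of differentiated cells were high in V6.5, the group in which Ctgf and Cyr61 were high within their pair. The 16 fibroblast and smooth muscle markers summed to 822 to 1848 exonic reads in the Dgcr8 knockout, against 6053, 14328 and 9976 in libraries A, B and C of V6.5. Most of the V6.5 sum was Tagln and Acta2, with means of 4025 and 2681. The 12 trophectoderm markers summed to 1461 to 2819 in the knockout and to 10971 to 14710 in V6.5. That V6.5 sum was mostly the keratins Krt8 and Krt18, with means of 5087 and 5209, while Cdx2 had a mean of 151.1. The 10 mesoderm and streak markers summed to 293 to 312 in the knockout, and to 411, 4096 and 4726 in V6.5. The ESC markers, 10 of 12 of which could be summed, gave 80754 to 105931 in the knockout and 86225, 28276 and 34798 in V6.5. V6.5 libraries B and C thus lay below every knockout library in the ESC sum and above them in the others. Library A of V6.5 also lay above the knockout in the others, with a trophectoderm sum of 12899. Its ESC sum lay below that of knockout library A, 105931. Pou5f1, in the ESC sum, read 18640, 5659 and 4460 in V6.5 and 28120, 9961 and 8851 in the knockout. Utf1, in this sum too, was likewise highest in A of both groups. In the knockout the ESC sum was also higher in A, at 105931 against 80754 and 82424, but by less than in V6.5. Not every ESC marker followed Utf1. Nanog read 9931, 4604 and 6897 in V6.5 and 12530, 12050 and 12450 in the knockout. Marker genes called lower in Dgcr8 exons were Col1a1, Col1a2, Acta2 and Tagln of fibroblasts and smooth muscle, Cdx2, Krt8 and Krt18 of trophectoderm, Dab2 of endoderm, and T and Wnt3 of mesoderm. All these calls were lost without library B or C of the knockout or of V6.5. With limma-voom 2 fibroblast and smooth muscle markers and 1 trophectoderm marker were called lower, and 0 of endoderm and of mesoderm. Lum was the 1 fibroblast marker at 0 in the knockout, and 0 were at 0 in V6.5. Acta2 and Tagln are in the serum response list too. The part of such cells in the Ctgf and Cyr61 levels was not tested.

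Since the libraries A stood apart, effects are also given within A, which is 1 library against 1, and within B and C. The Dgcr8 effect on Cyr61 was -0.59 on the log2 scale between the libraries A and -2.79 between the means of B and C. Ctgf gave -0.82 and -1.33, Amotl2 -0.08 and -1.39, and Wwtr1 -0.23 and -1.01. In the Dicer pair the values were 1.91 and 1.63 for Ctgf and 2.18 and 1.88 for Cyr61, and 1.12 and 1.13 for Amotl2. Tead4 gave 1.12 and 2.98 in the Dicer pair and 0.85 and 1.67 in the Dgcr8 pair.

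In the Dicer pair fibroblast and smooth muscle markers summed to 746 to 913 in the knockout and 581 to 1269 in TFC, overlapping. In the knockout 6 of them were at 0 (Col1a2, Col3a1, Postn, Lum, Lox and Twist2), and in TFC 0 were. Their TFC means were low, from 7.671 for Twist2 to 54.36 for Postn. Tagln lay the other way, with means of 429.7 in the knockout and 103.8 in TFC. Of 13 tested, 3 had fold changes above 0, where 49.4% of all genes did, with a median log2 fold change of -1.48. The trophectoderm sum overlapped too, at 4085 to 5905 and 1988 to 5993, and was mostly Tfap2c, with means of 3026 and 2680. Of the 8 trophectoderm markers tested, however, 6 had fold changes above 0, with a median of 1.69, and 4 reached an unadjusted p under 0.05, while limma and limma-voom called 0. Krt8 read 761.7, 493 and 698.5 in the Dicer knockout and 251.4, 125.1 and 158.2 in TFC, and Gata3 80.51, 74.97 and 50.46 against 6.419, 2.501 and 8.63, both without overlap. Mesoderm and streak markers summed to 659 to 841 in the Dicer knockout and 357 to 526 in TFC, without overlap, with means of 413.7 and 13.42 for Kdr. Of the 6 tested, 3 lay above 0 and 3 below. Primitive endoderm markers summed to 20403 to 31905 in the Dicer knockout and 8667 to 10646 in TFC, with means of 20890 and 4281 for Sparc. Of the 11 tested, 5 lay above 0 and 6 below, with a median of -0.07. Sparc and Col4a2, which encode basement membrane proteins, were called higher, beside 1.03% of all genes. Both calls were lost without library B or C of the knockout or of TFC, and without the variance trend. With limma-voom 1 marker of this list was called higher. Sox7, an endoderm transcription factor, read 11.5, 13.63 and 0 in the Dicer knockout against 139.1, 185.1 and 115.1 in TFC. The part of these markers' cells in the higher Ctgf and Cyr61 was not tested.

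**Figure D4:**
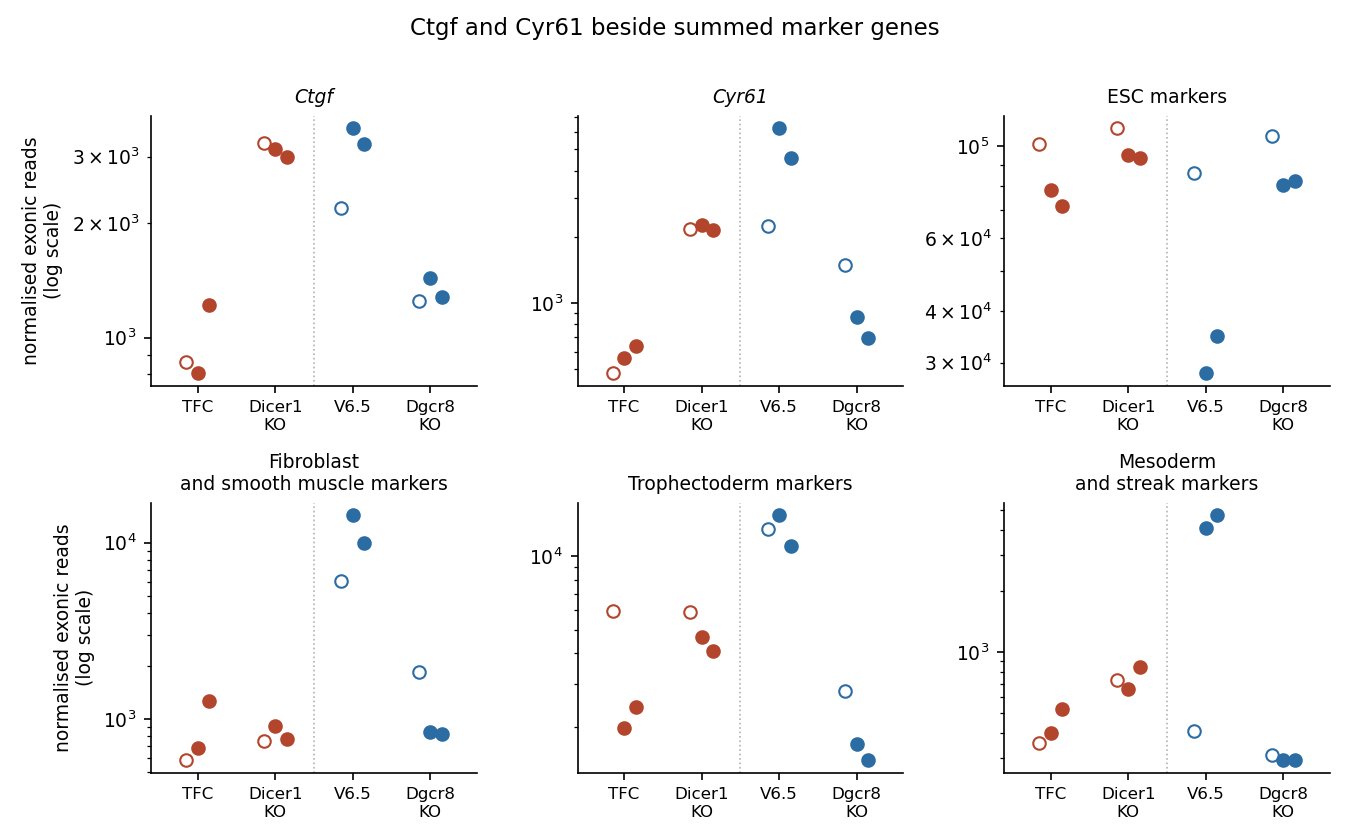
Normalised exonic reads of Ctgf and Cyr61 and summed marker genes (vertical axes, log scale) in the 12 libraries by group; open points are library A. Within V6.5, libraries B and C hold more Ctgf, Cyr61 and mesoderm markers and fewer ESC markers than library A, while in the Dicer pair fibroblast markers overlap between the groups. The ESC sum is higher in A than in B and C in the Dgcr8 knockout too, by less than in V6.5.

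Over the 12 exonic libraries, centred on the mean of each table, the genes most like Ctgf in pattern included Zc3hav1l (Pearson r of 0.955), Fgfbp1 (0.949), Cyr61 (0.938) and Arhgef5 (0.938). Fgfbp1 encodes a carrier of fibroblast growth factors. Cyr61 was thus the fourth of 12291 genes for Ctgf. Most like Cyr61 were Tpm1 (0.946), Cited2 (0.944), Thbs1 (0.944), Tagln (0.941) and Crim1 (0.940), of which Tpm1 and Tagln are in the serum response list and Crim1 in the target list. Thbs1, a matricellular protein as Cyr61 is, had means of 1787 and 385.7 in the Dicer knockout and TFC and of 974.9 and 7847 in the Dgcr8 knockout and V6.5. Most like Yap1 were Gpc4 (0.932), Parp12 (0.931), Vwa9 (0.919), Creb3 (0.917) and Acsl5 (0.915). Yap1 itself correlated with Ctgf at 0.654 and with Cyr61 at 0.577, and Tead4 at 0.291 and 0.116. Of all pairs of members, Ctgf and Cyr61 were the closest, before Tead1 and Wwtr1 at 0.758 and Amotl2 and Cyr61 at 0.741. These points share libraries, groups and scaling, so the values only describe which profiles look alike.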

How the data were processed

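PolyA RNA of 12 mouse ESC libraries was used. The submitters' processing notes name TopHat2 2.0.12, DESeq and mm10. The rule that split reads between exons and introns was not given in the sources used here. Each of the 4 deposited tables holds a signal, the mean of size-factor-normalised reads over a genotype's libraries, in 1 column per genotype per the file headers.

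Each mean is a whole-number combination of 3 steps, 1 per library. Solving for the steps gave size factors (0.394 to 2.397 in exons, 0.338 to 1.968 in introns) and each gene's reads per library. Between 99.21% and 100.0% of genes had 1 solution, the members in every column among them. Genes with several (at most 145 in a column, all at high levels) were left out. In tests, 2 simulated columns gave 98.1% and 99.99% of 18412 genes with 1 solution, of which 100.0% were right. Of the reads, 60.2 to 78.1% of exonic and 60.9 to 80.4% of intronic numbers were even, so they are not independent counts and no counting interval is given. Within a group, intronic libraries were given letters by the joint assignment whose deviations from the group mean correlated best in sum with the exonic ones, which was clear for A (r of 0.304 to 0.418 across genes) and weak for B and C (0.094 to 0.28; for Dgcr8 knockout B 0.163, with 0.165 for the next).

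Tests used limma 3.58.1 in R 4.3.3 (variance trend, Benjamini-Hochberg over all genes tested) on log2(value + 1), with a mean of at least 10 and 4 residual degrees of freedom in a table. Adding 1 makes changes of weakly read genes look smaller, and a library at 0 can widen them. Exonic against intronic change was tested on their log2 difference, centred on each library's median, and the Dicer against the Dgcr8 effect by a contrast over 12 libraries. Alternatives were a pseudocount of 5, a minimum mean of 1, no variance trend, a term for library A, limma-voom on the recovered reads, and leaving out each library. Lists were the targets, Hippo regulators, nuclear partners, CCN family, serum response, Smad2/3 and 5 marker lists. The text names all members, listed genes that were called, otherwise those with the 2 highest or lowest fold changes, and the 5 genes most like Ctgf, Cyr61 and Yap1. Other listed genes, such as Thbs1 means, Wisp1 and Amotl1 in the Dgcr8 pair, and the markers named in the Dicer pair were named after their values were seen. Members and lists were chosen with earlier results of these data known. Listed Wwc1, Amot and Vgll3 were not analysed here, and a few items that meet the rule are not reported here. Sequences are from RefSeq and Gencode M21, on GRCm38 (mm10), where Ctgf is Ccn2 and Cyr61 is Ccn1.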

Additional observations from a re-analysis of the deposited data

Results flagged for a closer look

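The exonic effect of the Dicer knockout differed from that of the Dgcr8 knockout, by the limma contrast of both over 12 libraries, for 6 of the members and listed genes. The differences on the log2 scale were 2.88 for Ctgf and 4.04 for Cyr61, which were chosen with these contrasts known. They were 5.29 for Tagln (limma adjusted p = 0.00714), 6.32 for Krt8 (0.00714), 7.03 for Krt18 (0.0184) and 3.77 for Col4a2 (0.0495). In each, the mean of the Dicer knockout lay above TFC and that of the Dgcr8 knockout below V6.5. Tagln, Krt8, Krt18 and Col4a2 are on the lists for smooth muscle, trophectoderm and primitive endoderm, whose summed levels are given with the report. In Dicer exons 10 of 13 fibroblast and smooth muscle markers and 6 of 11 primitive endoderm markers lay below 0, unlike Tagln and Col4a2. Of the trophectoderm markers 6 of 8 lay above 0, as Krt8 and Krt18 did. Tagln and Col4a2 therefore do not stand for their lists in Dicer exons. For the difference of effects, with the flagged genes counted, 8 of 8 trophectoderm markers lay above 0, with a median of 4.22. So did 9 of 13 fibroblast and smooth muscle markers (median 2.32) and 8 of 11 primitive endoderm markers (median 1.88). Of all genes 52.8% lay above 0, with a median of 0.05. Groups of 3 libraries are too small for a test of single outlying libraries.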

How the results depend on the processing

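No paired analysis was possible because the deposited columns are group means and carry none of the labels' replicate numbers. A term for library A, a letter set from the data, was fitted in its place and pairs no B or C. Of 57 values of the members, 39 kept their sign under every alternative, as did 622 of 657 single alternatives. The Dicer minus Dgcr8 difference ranged from 2.74 to 3.09 for Ctgf and from 3.72 to 4.46 for Cyr61, which were selected on these contrasts.

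The number of genes called, in either direction, moved more. With a term for library A it went from 165 to 1603 in Dicer exons, from 41 to 91 in Dicer introns, from 169 to 2159 in Dgcr8 exons, from 163 to 451 in Dgcr8 introns, and from 21 to 335 for the Dicer against the Dgcr8 effect. With limma-voom on the recovered reads it was 72 in Dicer exons, 63 in Dicer introns and 54 in Dgcr8 exons. Without the variance trend it was 35 in Dicer exons, 1 in Dicer introns and 107 in Dgcr8 introns. A pseudocount of 5 gave 72 in Dicer introns and 272 in Dgcr8 introns, and a minimum mean of 1 gave 76 in Dicer introns. Leaving out each library gave 0 to 482 in Dicer exons, 0 to 37 in Dicer introns, 0 to 463 in Dgcr8 exons, 26 to 176 in Dgcr8 introns and 11 to 100 for the difference of effects. The lowest counts came without a library B or C. The exonic against the intronic change gave 0 calls in every alternative run. The cause was not tested. With few reads in the introns of Ctgf, Cyr61 and Wwtr1, differences there were hardly measurable at this depth.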
